A study of Mus musculus with 12 samples.

Results

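The ligands and receptors of the tumor necrosis factor (TNF) superfamily were examined in RNA-seq data of mouse back skin. Members were chosen by gene symbol, as every Tnfsf or Tnfrsf symbol followed by a number together with 14 members that carry older names, such as Tnf, Ltb, Fas and Ngfr. The rule used no measured value and found 45 of the 18505 gene symbols in the table, 18 of them ligands and 27 receptors. All animals were male wild-type BALB/c mice aged 5 to 6 weeks with shaved backs, and skin was taken on day 10. Control skin was coated with petroleum jelly. IMQ + NS skin received imiquimod (IMQ) cream and was then covered with saline (NS). IMQ + BZLF skin received the same cream and was then covered with the external Banzhilian formula (BZLF), a herbal mixture. In both IMQ groups the cover was fixed with gauze and polyurethane film, and no such dressing is stated for control skin. Imiquimod and the dressing thus cannot be told apart in comparisons with control. Each group had 4 samples. Imiquimod is a Toll-like receptor agonist whose repeated application gives a psoriasis-like inflammation, so these are lesions of an induced model in whole skin and not of a chronic disease. Levels are given as FPKM, fragments scaled by transcript length and by sequencing depth, which allow levels to be compared between genes per length.

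TNF superfamily ligands are mostly trimeric proteins made on the cell surface, from which some are cut loose. Their receptors either carry a death domain that can start cell death, or recruit TRAF adaptors that turn on NF-kappa B and MAP kinases, or act as decoys. TNF is a master cytokine of skin inflammation and a drug target in psoriasis. Lymphotoxins shape lymphoid tissue, CD40, 4-1BB, OX40 and CD30 tune lymphocyte activation, BAFF and APRIL keep B cells and plasma cells alive, and ectodysplasin drives the formation of hair follicles.

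The members spanned more than 3 orders of magnitude in level, and the receptors stood higher than the ligands. The median of the 12-sample means was 1.59 FPKM for the 27 receptors and 0.408 FPKM for the 18 ligands. The 5 members with a mean of 10 FPKM or more were all receptors. Tnfrsf1a, the main TNF receptor of most tissue cells, led with a mean of 77.0 FPKM, followed by the TWEAK receptor Tnfrsf12a with 50.9 FPKM, the lymphotoxin beta receptor Ltbr with 37.0 FPKM, the GITR gene Tnfrsf18 with 15.3 FPKM and the TROY gene Tnfrsf19 with 10.5 FPKM. The highest ligand was Ltb, with 8.37 FPKM. Another 17 members had means from 1 to 10 FPKM, 19 from 0.1 to 1 FPKM and 4 below 0.1 FPKM.

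**Figure D1:**
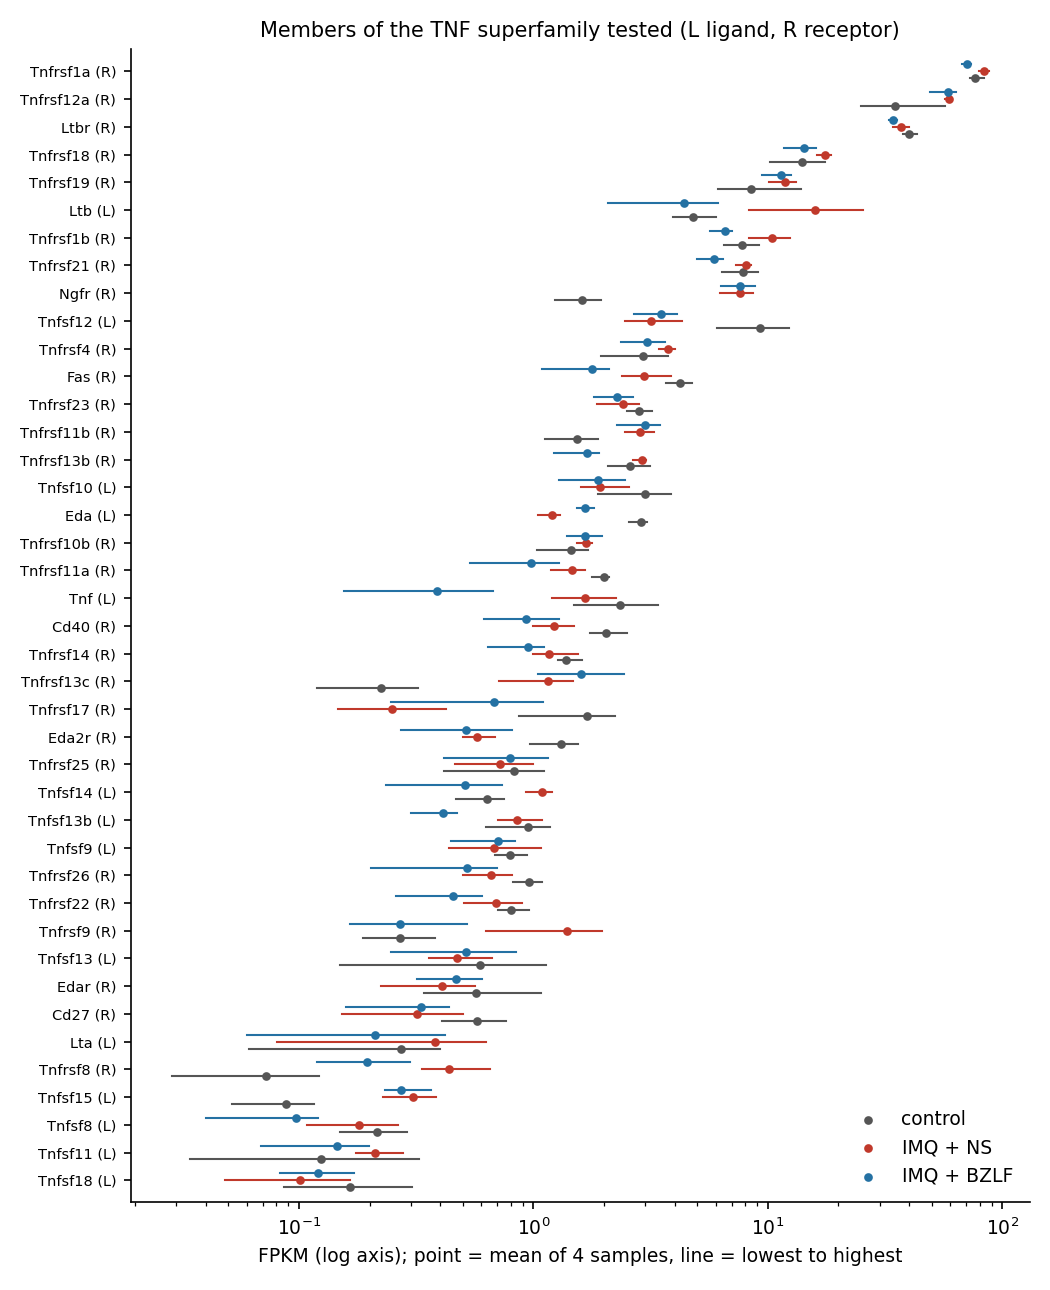
Level of the 41 tested members in each group, on a log axis in FPKM. Points are means of 4 samples and lines run from the lowest to the highest sample. Tnfrsf1a stands at the top in all 3 groups, and the IMQ + NS lines of Ltb and Tnfrsf9 lie to the right of the lines of both other groups.

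The 4 members below 0.1 FPKM were all ligands of lymphocytes and were not tested. Cd40lg, the CD40 ligand of helper T cells, was listed at 0, 0.020, 0.286 and 0.0824 FPKM in control replicates 1 to 4, at 0, 0.0418, 0.0199 and 0 FPKM in the IMQ + NS replicates, and at 0 in the 4 IMQ + BZLF samples. Fasl, the Fas ligand, was listed at 0, 0.0129, 0.0132 and 0.107 FPKM in the control group, at 0.0900, 0.0810, 0.0128 and 0.0515 FPKM in the IMQ + NS group, and at 0.0133, 0, 0.0262 and 0.0252 FPKM in the IMQ + BZLF group. These values overlapped between the groups. Cd70 reached at most 0.297 FPKM and Tnfsf4, the OX40 ligand, at most 0.167 FPKM. The other 41 members, 14 ligands and 27 receptors, were above 0 in every sample and were tested.

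The labels number the samples of a group but do not say that each came from its own animal. The p-values thus set group differences against the spread between samples of a group. Whether that spread is one between animals is unknown. Samples of a group correlated at r = 0.949 to 0.990 over genes. Libraries of the same group differed in some marker sums. Control replicate 2 had a summed level of 7 hair shaft and inner root sheath markers of 1537 FPKM, against 16.1 to 47.2 FPKM in the other controls and 7186 to 12645 FPKM in the 8 imiquimod-treated samples. The summed level of 3 seminal vesicle markers was 32.3 FPKM in control replicate 2 and 31.1 FPKM in IMQ + BZLF replicate 2, and at most 0.0441 FPKM elsewhere. For 4 pancreas markers it was 1.92 to 5.56 FPKM in replicate 4 of each group, 9.70 and 10.1 FPKM in IMQ + NS replicates 1 and 2, and 46.0 to 68.9 FPKM in the other 7 samples, IMQ + NS replicate 3 among them. Calls that change without a library are given without it as well. Keratinocyte markers were present in every sample, with sums of 1841 to 7578 FPKM.

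For each pair of groups, a member was called when limma's adjusted p over all 15288 tested genes was below 0.05 and the fold change exceeded 2, with fold changes on the log2(FPKM + 0.1) scale, which understates those of low genes. Between IMQ + NS and control samples, which shows the family in the induced lesion under its dressing, 6 of 41 members rose and 4 fell. The same rule called 11.4% of all tested genes higher and 11% lower in that comparison, beside 14.6% and 9.76% of the members, so the family was called about as often as all genes. At an adjusted p below 0.05 alone, 10 members rose and 8 fell (24.4% and 19.5% of the 41), against 29% and 27.1% of all genes. With 1 in place of 0.1 added before the logarithm, 2 rises (Ngfr and Ltb) and 2 falls (Tnfsf12 and Tnfrsf17) passed the fold limit. Over the 3 comparisons 26 member values passed the adjusted p and not the fold limit, and 18 of these lost the adjusted p without at least 1 library.

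Between IMQ + BZLF and IMQ + NS samples, which shows the family after treatment of the lesion, 3 of 41 members fell (7.32%) and 0 rose. Of all tested genes 2.2% were called lower and 0.321% higher. The 3 members were Tnf, Ltb and Tnfrsf9. The count of 3 was not stable: it was 2 when IMQ + NS replicate 2 or 3 was dropped, and 1, that of Tnf, when IMQ + NS replicate 4 or IMQ + BZLF replicate 2 was dropped. At an adjusted p below 0.05 alone, 8 members fell (19.5%) and 1 rose (2.44%), against 5.17% and 1.28% of all genes. At an unadjusted p below 0.05 with the fold limit, 1 member, Tnfrsf17, was higher, as were 0.576% of all genes. The median log2 fold change of the 41 members was -0.24, beside -0.02 over all tested genes.

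Between IMQ + BZLF and control samples, 2 members were higher and 8 lower (4.88% and 19.5%), while the rule called 9.65% of all genes higher and 10.1% lower. At the adjusted p alone, 6 members were higher and 16 lower (14.6% and 39%), against 23.8% and 29.2% of all genes. The count of 8 was 5 without control replicate 3 or without IMQ + BZLF replicate 1, and the count of 2 was 4 in those fits. The comparisons share samples, so their values are given side by side.

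**Figure D2:**
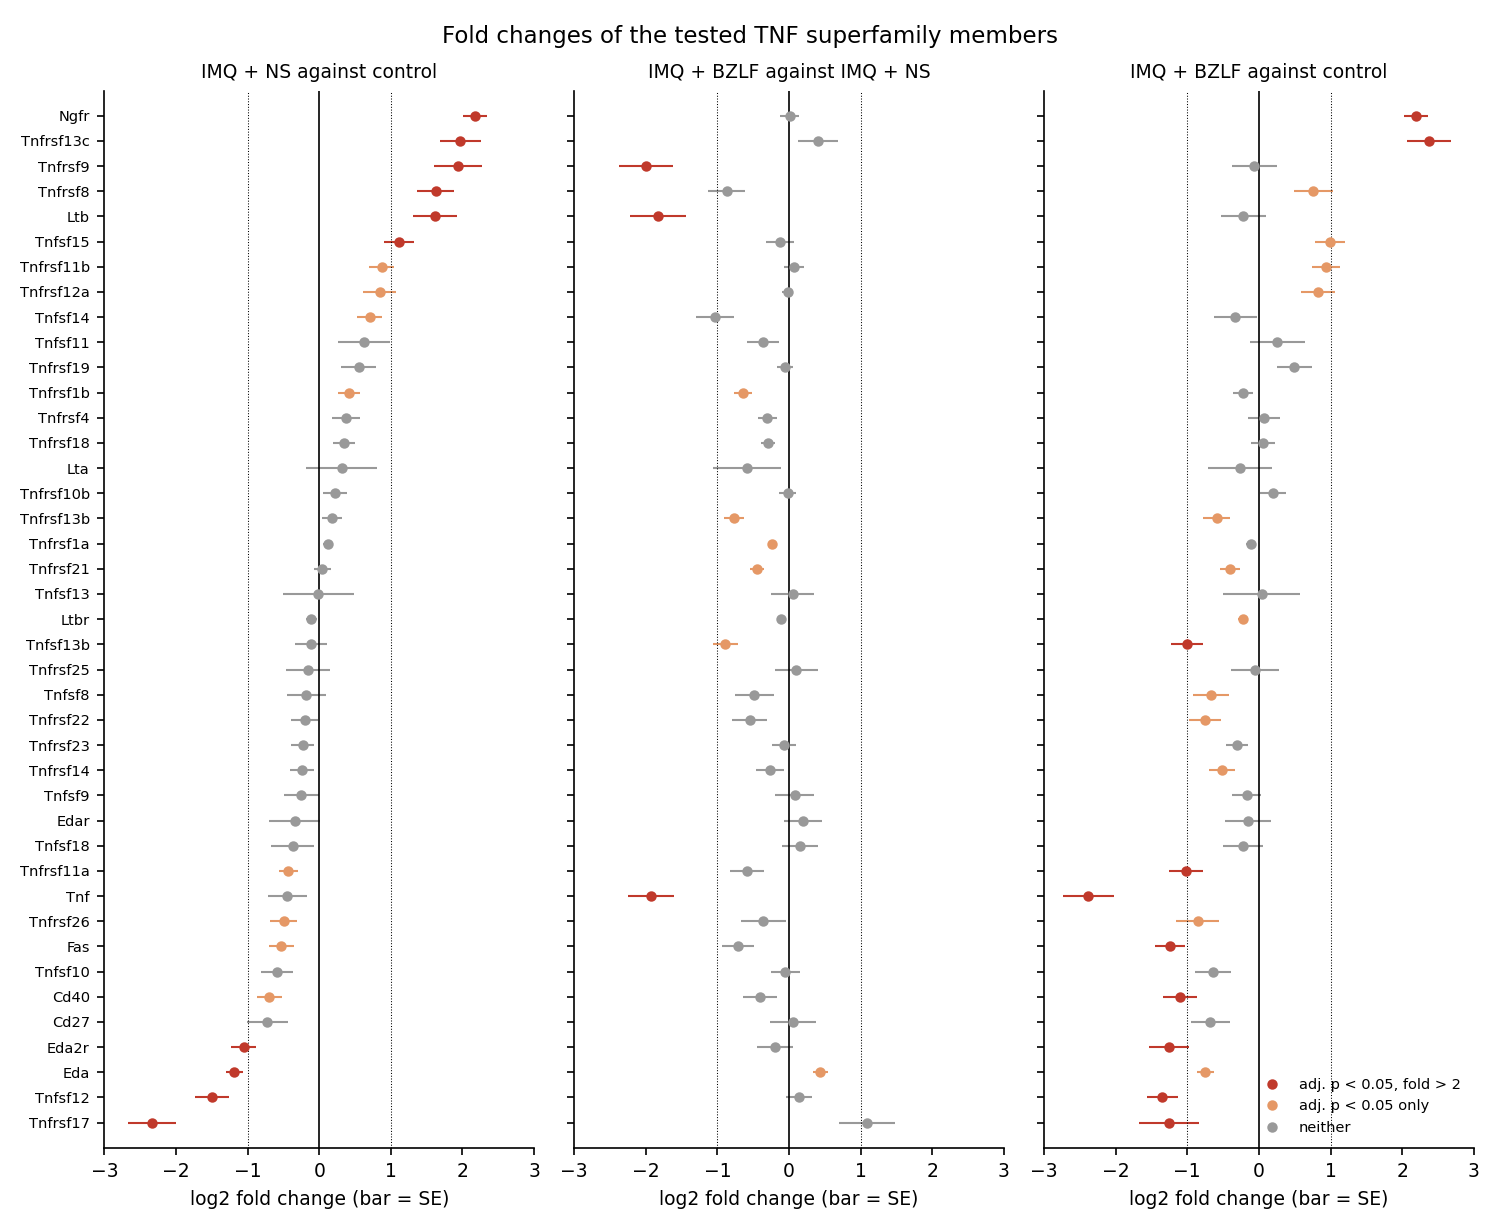
Log2 fold change of the 41 tested members in the 3 comparisons, with bars of 1 standard error. Red points passed an adjusted p below 0.05 and a fold change over 2, orange points the adjusted p only, and dotted lines mark a fold change of 2. Tnf, Ltb and Tnfrsf9 are the red points of the middle panel, at -1.93, -1.83 and -2.0.

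Ltb encodes lymphotoxin beta, the membrane anchor of the lymphotoxin complex that binds the lymphotoxin beta receptor, and Tnfrsf9 encodes 4-1BB, a receptor shown by activated T cells. Both rose about 3- to 4-fold in the induced lesion and stood near the control level after BZLF. Tnf, the founding ligand, took another course: it did not pass the test in the lesion and was lower after BZLF than in either other group. The 250 bases before a listed start of these 3 genes are shown, as these were the members called in the treatment comparison. NF-kappa B is a factor that TNF receptors turn on, and its part in these changes was not tested. The sequences are from RefSeq, build GRCm38.p6, 5′ to 3′ on the strand of the gene, with matches to the consensus κB site in capitals. The windows are chr17:35194257-35194506 on the plus strand for Ltb and chr17:35202008-35202257 on the minus strand for Tnf. The Tnfrsf9 window is chr4:150927749-150927998 on the plus strand, before the second of 2 listed starts. That start lies inside the gene, which spans chr4:150920155-150946104. The window before the first Tnfrsf9 start, chr4:150919905-150920154, is not printed.
Ltb: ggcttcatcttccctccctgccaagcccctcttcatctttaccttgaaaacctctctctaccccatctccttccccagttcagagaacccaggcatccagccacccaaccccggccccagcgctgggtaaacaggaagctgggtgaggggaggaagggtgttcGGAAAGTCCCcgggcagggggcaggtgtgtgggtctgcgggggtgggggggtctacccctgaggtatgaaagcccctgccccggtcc
Tnfrsf9: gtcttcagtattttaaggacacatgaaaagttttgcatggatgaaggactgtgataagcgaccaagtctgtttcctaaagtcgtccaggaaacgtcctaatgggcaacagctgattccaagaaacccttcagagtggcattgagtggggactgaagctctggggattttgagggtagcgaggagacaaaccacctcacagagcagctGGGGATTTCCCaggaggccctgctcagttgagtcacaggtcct
Tnf: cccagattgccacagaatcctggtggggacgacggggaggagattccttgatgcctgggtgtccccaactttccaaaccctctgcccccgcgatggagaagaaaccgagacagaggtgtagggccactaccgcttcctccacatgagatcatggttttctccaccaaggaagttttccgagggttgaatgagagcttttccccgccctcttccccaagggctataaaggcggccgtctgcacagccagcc
The Ltb window held 1 match, 87 to 78 bases before the start. The printed Tnfrsf9 window held overlapping matches 43 to 33 bases before the second start, inside the gene. The windows of Tnf and of the first Tnfrsf9 start held none. On both strands, 4 of 39 windows of 35 members held a match (10.3%), those of Ltb, Tnfrsf9, Tnfrsf8 and Tnfrsf25, against 7.25% of 32851 windows of all genes. A match of letters is a description and not a measured site. Ltb, Tnf and Lta are neighbours on chromosome 17, with gaps of 3.1 kb between Ltb and Tnf and 1.2 kb between Tnf and Lta.

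Ltb stood at 6.01, 4.70, 4.51 and 3.93 FPKM in control replicates 1 to 4, at 8.29, 12.9, 25.5 and 17.2 FPKM in the IMQ + NS replicates, and at 2.07, 3.90, 6.16 and 5.42 FPKM in the IMQ + BZLF replicates. Every IMQ + NS sample was above every other sample. Ltb rose 3.06-fold from control to IMQ + NS skin (log2 fold change 1.62 ± 0.31 SE, adjusted p = 0.00229) and fell between IMQ + NS and IMQ + BZLF skin by 3.56-fold (-1.83 ± 0.39, adjusted p = 0.0282). The IMQ + BZLF and control values overlapped (-0.22 ± 0.31, adjusted p = 0.58). The fall after BZLF missed the threshold in 4 of 8 fits that left out 1 library, with an adjusted p of 0.0556, 0.0699 and 0.0807 when IMQ + NS replicates 2, 3 and 4 were dropped in turn and of 0.0843 when IMQ + BZLF replicate 2 was. It also missed it with no filter on low values (adjusted p = 0.0686) and with variances without a trend (adjusted p = 0.051).

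Tnfrsf9 was at 0.213, 0.298, 0.381 and 0.187 FPKM in the controls and at 0.625, 1.25, 1.96 and 1.72 FPKM in the IMQ + NS samples. In the IMQ + BZLF samples it was at 0.165, 0.177, 0.216 and 0.520 FPKM. The IMQ + NS values again lay above all others, with IMQ + NS replicate 1 and IMQ + BZLF replicate 4 closest to each other. The log2 fold change was 1.93 ± 0.34 for IMQ + NS against control (3.82-fold, adjusted p = 0.00142), -2.0 ± 0.38 for IMQ + BZLF against IMQ + NS (4.0-fold lower, adjusted p = 0.0165) and -0.06 ± 0.31 for IMQ + BZLF against control (adjusted p = 0.876). The adjusted p of the second comparison was 0.0532 when IMQ + NS replicate 4 was dropped and 0.0591 when IMQ + BZLF replicate 2 was.

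Tnf stood at 1.95, 1.48, 2.57 and 3.4 FPKM in the controls, at 1.49, 1.20, 2.26 and 1.70 FPKM in the IMQ + NS samples and at 0.156, 0.331, 0.675 and 0.384 FPKM in the IMQ + BZLF samples. The control and IMQ + NS values overlapped, whereas all 4 IMQ + BZLF values lay below all 8 others. The mean was 2.35 ± 0.83 FPKM in control, 1.66 ± 0.45 FPKM in IMQ + NS and 0.386 ± 0.215 FPKM in IMQ + BZLF skin (SD, n = 4 each). Tnf did not pass the test between IMQ + NS and control skin (-0.45 ± 0.27, adjusted p = 0.187). It fell 3.82-fold against IMQ + NS skin (-1.93 ± 0.32, adjusted p = 0.0108) and 5.21-fold against control skin (-2.38 ± 0.36, adjusted p = 0.000878). The adjusted p of the fall against IMQ + NS skin stayed below 0.05 without any single library. With 1 added before the logarithm, which damps the changes of low genes, the falls of Tnf (-0.94, adjusted p = 0.00788) and Tnfrsf9 (-0.88, adjusted p = 0.0228) kept their p below 0.05 but not the fold limit. With 4 samples a group the smallest p of a two-sided exact permutation test is 0.0286, which Tnf, Ltb and Tnfrsf9 all had between IMQ + BZLF and IMQ + NS skin.

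**Figure D3:**
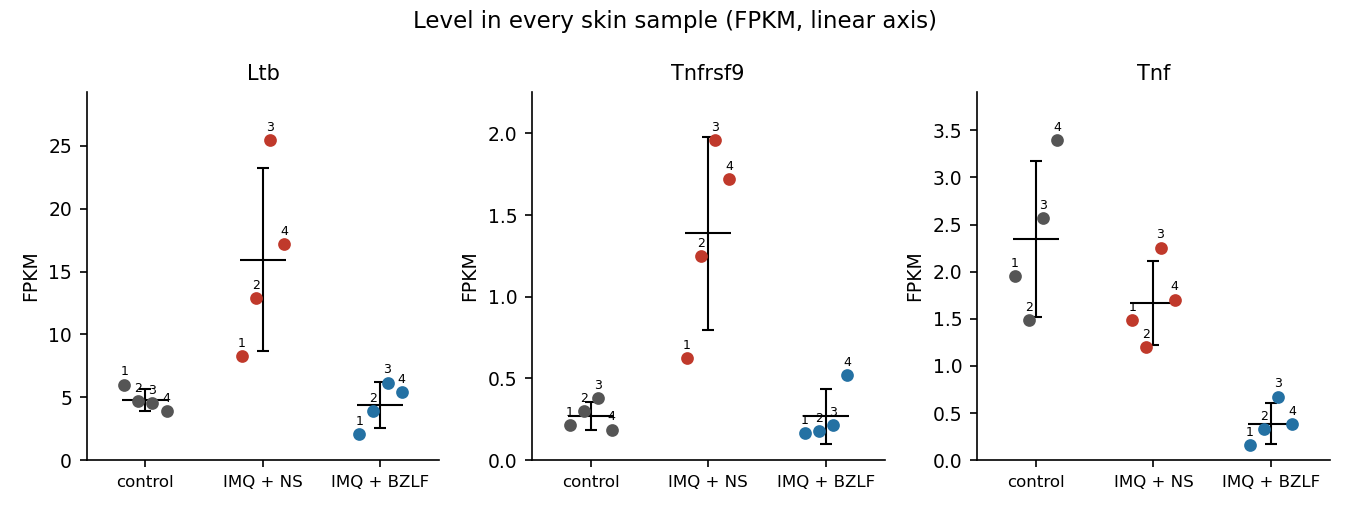
Level of Ltb, Tnfrsf9 and Tnf in every sample, in FPKM on linear axes from 0. Points are samples with their replicate numbers, and black marks are the mean and SD of 4 samples. Ltb and Tnfrsf9 are highest in the IMQ + NS group, and the 4 Tnf values of the IMQ + BZLF group, 0.156 to 0.675 FPKM, lie under all others.

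Some markers of immune and epidermal cells moved in the same comparison, and others overlapped. The summed level of 5 neutrophil markers was 5.83 to 8.88 FPKM in control, 22.9 to 61.2 FPKM in IMQ + NS and 3.53 to 6.01 FPKM in IMQ + BZLF skin. For 7 T cell markers the ranges were 13.9 to 19.2, 10.95 to 21.5 and 6.39 to 12.9 FPKM. For 4 B cell and plasma cell markers they were 1.28 to 2.75, 6.21 to 9.69 and 1.71 to 13.2 FPKM, for 5 macrophage markers 210 to 301, 152 to 212 and 99.99 to 155 FPKM, and for 5 keratinocyte markers 1841 to 2960, 4777 to 7578 and 2153 to 3701 FPKM. Neutrophil and keratinocyte sums thus did not overlap between IMQ + NS and IMQ + BZLF samples, and T cell and macrophage sums did. The B cell and plasma cell sum overlapped through IMQ + BZLF replicate 4, at 13.2 FPKM against 1.71 to 2.57 FPKM in the rest of its group. Langerhans and dendritic cell markers overlapped in sum (7.68 to 12.8 against 5.71 to 10.4 FPKM). So did NK cell (0.606 to 1.80 against 0.270 to 1.85 FPKM) and mast cell markers (109 to 146 against 77.6 to 141 FPKM). In these lists Flt3 alone did not (0.625 to 0.851 against 0.0951 to 0.517 FPKM). The share of all genes without such an overlap was not counted, so these separations are a description only. Single markers differed from their sums: Krt1, Krt10 and Ly6g overlapped between these groups. The T cell markers Cd4 (1.57 to 2.94 against 0.527 to 1.49 FPKM) and Lck (1.91 to 2.41 against 1.02 to 1.83 FPKM) did not, while the other T cell markers did. The macrophage markers did not move as one: Adgre1 was at 22.6 to 33.3 FPKM in control, 43.7 to 52.7 FPKM in IMQ + NS and 12.9 to 19.98 FPKM in IMQ + BZLF skin, with no overlap, whereas Cd163 was at 25.3 to 47.6, 8.61 to 20.9 and 12.1 to 18.6 FPKM. No marker of these lists was at 0 in all samples. Their part in the changes of Ltb, Tnfrsf9 and Tnf was not tested, and in whole skin fewer cells of a type and less RNA per cell cannot be told apart.

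The receptors that bind these ligands changed less. Tnfrsf1a was at 76.1, 83.8, 73.0 and 74.0 FPKM in the controls, 79.8, 87.6, 82.3 and 84.7 FPKM in the IMQ + NS samples and 71.0, 67.1, 71.3 and 73.3 FPKM in the IMQ + BZLF samples. It was lower in every IMQ + BZLF than in every IMQ + NS sample, by a small step of 1.18-fold (-0.24 ± 0.05, adjusted p = 0.0252, lost in 5 of 8 fits that left out 1 library), and neither group differed from control at the threshold. Tnfrsf1b, the TNF receptor found mainly on immune cells, was at 9.13, 6.83, 8.64 and 6.51 FPKM, then 8.29, 10.3, 12.5 and 10.6 FPKM, and then 5.65, 6.67, 7.0 and 7.03 FPKM in the same order of groups. It fell after BZLF (-0.64 ± 0.12, adjusted p = 0.0185) by less than 2-fold. In the lesion its change was 0.42 ± 0.16 (adjusted p = 0.048), but the groups overlapped, the exact permutation p was 0.0857, and the adjusted p was lost in 6 of 8 fits that left out 1 library and reached 0.236. Ltbr was at 43.3, 40.5, 37.7 and 38.2 FPKM in control, 34.2, 38.2, 35.5 and 40.1 FPKM in IMQ + NS and 32.9, 34.0, 34.1 and 35.7 FPKM in IMQ + BZLF skin. Its log2 fold change was -0.11 ± 0.08 in the lesion (adjusted p = 0.266), -0.11 ± 0.06 after BZLF against IMQ + NS (adjusted p = 0.308) and -0.22 ± 0.07 after BZLF against control (adjusted p = 0.0292, lost in 4 of 8 fits that left out 1 library).

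The other ligands of the lymphotoxin group were low. Lta, lymphotoxin alpha, was at 0.400, 0.0615, 0.283 and 0.348 FPKM in control, 0.443, 0.0803, 0.627 and 0.368 FPKM in IMQ + NS and 0.206, 0.160, 0.421 and 0.060 FPKM in IMQ + BZLF skin. The groups overlapped and no comparison passed, with a log2 fold change of 0.32 ± 0.50 in the lesion and -0.58 ± 0.48 after BZLF. Tnfsf14, the ligand LIGHT, shared by Ltbr and the receptor Tnfrsf14, ranged from 0.468 to 0.752 FPKM in control, 0.932 to 1.20 FPKM in IMQ + NS and 0.234 to 0.732 FPKM in IMQ + BZLF skin. Tnfsf14 rose in the lesion (0.71 ± 0.18, adjusted p = 0.00875). After BZLF its change was -1.03 ± 0.26 with an adjusted p of 0.0523, just outside the threshold although the IMQ + BZLF values lay below all IMQ + NS values. Tnfrsf14 itself was at -0.24 ± 0.17 in the lesion and -0.27 ± 0.20 after BZLF, with adjusted p of 0.242 and 0.453.

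Among the ligands grouped as death-inducing, Tnfsf12, which encodes TWEAK, fell in the lesion and Tnfsf15, which encodes TL1A, rose. Tnfsf12 was at 9.03, 6.04, 12.3 and 9.54 FPKM in control, 3.05, 4.30, 2.89 and 2.46 FPKM in IMQ + NS and 2.68, 3.64, 4.10 and 3.54 FPKM in IMQ + BZLF skin. Every control sample exceeded every treated sample. The change was -1.49 ± 0.23 for IMQ + NS against control (2.82-fold lower, adjusted p = 0.000821) and -1.35 ± 0.22 for IMQ + BZLF against control (adjusted p = 0.00121). The treated groups overlapped (0.15 ± 0.18, adjusted p = 0.678). Tnfsf12 and Tnfsf13, which encodes APRIL, lie 0.7 kb apart on chromosome 11 under a gene annotated across both, so their reads can be shared and their levels are uncertain to that extent. Summed markers of other skin layers were lower in the treated groups too. The sum of 3 skeletal muscle markers was 2168 to 5238 FPKM in control, 426 to 1004 FPKM in IMQ + NS and 706 to 946.5 FPKM in IMQ + BZLF skin. For 3 adipocyte markers the ranges were 398 to 956, 140 to 218 and 200.3 to 231 FPKM, and for 4 fibroblast markers 8077 to 11441, 2537 to 3289 and 2750 to 5143 FPKM. Control replicate 2 was the lowest control in each of these 3 sums. It was also the lowest control for each of the 8 members called lower in IMQ + BZLF than in control skin. These were Tnfsf12, Eda2r, Tnfrsf17, Fas, Tnf, Cd40, Tnfsf13b and Tnfrsf11a. For Eda, which was lower too, control replicate 1 was the lowest, at 2.56 FPKM against 2.91 FPKM in control replicate 2. Some single markers differed from their sums. The fibroblast marker Pdgfra overlapped, at 13.7 to 19.5 FPKM in control, 13.99 to 17.4 FPKM in IMQ + NS and 10.02 to 18.1 FPKM in IMQ + BZLF skin. Control replicate 2 was its highest control. The adipocyte marker Lep overlapped too (5.42 to 42.6, 7.39 to 11.8 and 6.63 to 9.25 FPKM). No marker of these lists was at 0 in all samples. Their part in the levels of these 8 members and of Eda was not tested.

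Tnfsf15 was at 0.0780, 0.0519, 0.106 and 0.116 FPKM in control, 0.383, 0.308, 0.310 and 0.229 FPKM in IMQ + NS and 0.232, 0.365, 0.25 and 0.245 FPKM in IMQ + BZLF skin. The control values lay below all others. The change was 1.12 ± 0.21 in the lesion (adjusted p = 0.00194) and 0.99 ± 0.21 for IMQ + BZLF against control (adjusted p = 0.0043), the latter short of the fold limit. Both lay at its edge, since the first fell short of it with quantile normalization (0.98) and the second passed it in 5 of 8 fits that left out 1 library. After BZLF against IMQ + NS it was -0.13 ± 0.19 (adjusted p = 0.735). Tnfsf10, which encodes TRAIL, ranged from 1.89 to 3.86, 1.60 to 2.55 and 1.29 to 2.46 FPKM in the 3 groups and passed in no comparison. Its receptor Tnfrsf10b and the TL1A receptor Tnfrsf25 also passed in none, with log2 fold changes from -0.16 to 0.22.

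The TWEAK receptor Tnfrsf12a moved against its ligand in the lesion. It was at 24.9, 57.1, 27.5 and 29.8 FPKM in control, 59.7, 56.8, 60.5 and 59.5 FPKM in IMQ + NS and 59.7, 49.3, 61.9 and 63.5 FPKM in IMQ + BZLF skin. Control replicate 2 stood among the treated samples and the other controls far below them. Over all samples Tnfrsf12a rose by 0.85 ± 0.23 (adjusted p = 0.0136). Without control replicate 2 the log2 fold change was 1.11 and the gene passed the fold limit, as it did for IMQ + BZLF against control (1.09). Tnfrsf12a overlaps Hcfc1r1, with which reads may be shared. TROY, Tnfrsf19, a receptor of hair follicle cells without a settled ligand, showed the same outlying sample, at 13.9 FPKM against 6.13 to 6.99 FPKM in the other controls and 9.41 to 13.2 FPKM in the treated samples, and did not pass (0.55 ± 0.24, adjusted p = 0.0807). Edar, the ectodysplasin receptor of hair placodes, was at 1.08 FPKM in control replicate 2 and 0.340 to 0.435 FPKM in the other controls. The hair markers of that library are given above, and their part in these levels was not tested.

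**Figure D4:**
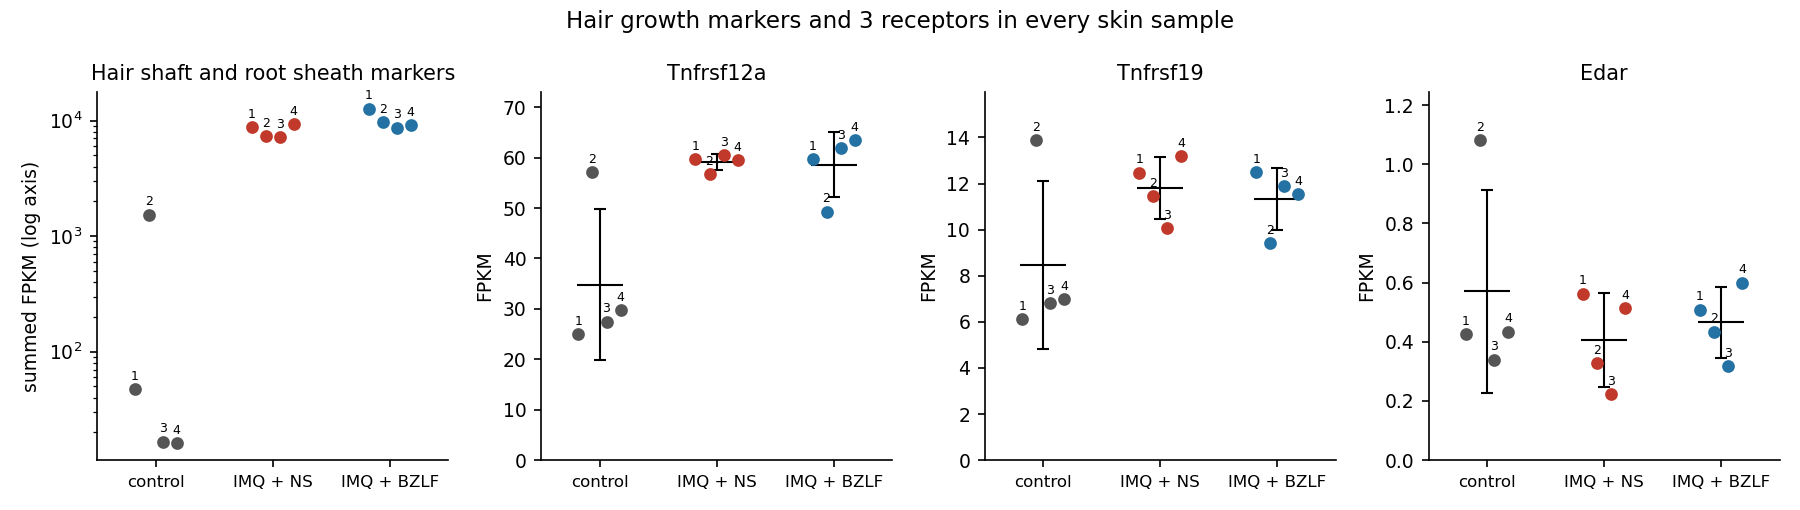
Summed level of 7 hair shaft and inner root sheath markers (log axis) and level of Tnfrsf12a, Tnfrsf19 and Edar (linear axes from 0) in every sample, in FPKM, with replicate numbers. Black marks are mean and SD of 4 samples. Control replicate 2, at 1537 FPKM in the first panel, stands above the other controls in all 4 panels.

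The ectodysplasin ligand Eda fell in the lesion and its second receptor Eda2r fell with it. Eda was at 2.56, 2.91, 3.05 and 2.93 FPKM in control, 1.24, 1.30, 1.04 and 1.24 FPKM in IMQ + NS and 1.65, 1.53, 1.67 and 1.82 FPKM in IMQ + BZLF skin, so that the 3 groups did not overlap. The change was -1.18 ± 0.12 in the lesion (2.27-fold lower, adjusted p = 8.1e-05). Eda was the 1 member that rose after BZLF at the adjusted p alone, by 0.44 ± 0.11 (adjusted p = 0.0463). That adjusted p was lost in all 8 fits that left out 1 library and reached 0.129, with the ranges of the 2 groups apart. Eda stayed below control (-0.75 ± 0.11, adjusted p = 0.00091). Eda2r was at 1.31, 0.966, 1.55 and 1.40 FPKM, then 0.526, 0.684, 0.577 and 0.501 FPKM, and then 0.272, 0.433, 0.544 and 0.807 FPKM. Its change was -1.06 ± 0.18 in the lesion (adjusted p = 0.00111, short of the fold limit without control replicate 3), -0.20 ± 0.26 after BZLF against IMQ + NS (adjusted p = 0.696) and -1.25 ± 0.28 after BZLF against control (adjusted p = 0.00546). Edar was at -0.34 ± 0.36 in the lesion (adjusted p = 0.432). Its adaptor Edaradd was called higher in both treated groups against control (1.10 and 1.10, adjusted p = 0.0167 and 0.0184), a call that was lost without control replicate 1 or 3. Edaradd was at 2.02 FPKM in control replicate 2 and at 0.615 to 0.840 FPKM in the other controls.

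Ngfr, the p75 receptor for neurotrophins, rose in the lesion. It was at 1.79, 1.94, 1.46 and 1.24 FPKM in control, 6.96, 6.26, 8.63 and 8.53 FPKM in IMQ + NS and 8.78, 8.16, 7.28 and 6.29 FPKM in IMQ + BZLF skin. The treated groups overlapped and lay far above control. The change was 2.18 ± 0.17 in the lesion (4.53-fold, adjusted p = 2.16e-05), 0.01 ± 0.13 for IMQ + BZLF against IMQ + NS (adjusted p = 0.978) and 2.19 ± 0.17 for IMQ + BZLF against control (adjusted p = 3.03e-05). Ngfr held its call in all 18 alternative fits of both comparisons with control. Markers of peripheral nerve glia, which also carry this receptor, went the other way, with summed levels of 55.2 to 90.4 FPKM in control, 16.4 to 24.0 FPKM in IMQ + NS and 19.3 to 36.2 FPKM in IMQ + BZLF skin. Of 3 such markers none was at 0 in all samples, and their part in the level of Ngfr was not tested.

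Fas, the death receptor that the Fas ligand engages, was lower in both treated groups. It was at 4.22, 3.66, 4.31 and 4.73 FPKM in control, 2.38, 3.16, 3.86 and 2.39 FPKM in IMQ + NS and 1.09, 1.92, 2.10 and 2.01 FPKM in IMQ + BZLF skin. Control and IMQ + BZLF values did not overlap. Fas fell in the lesion by less than the fold limit (-0.53 ± 0.17, adjusted p = 0.0278, lost in 5 of 8 fits that left out 1 library). For IMQ + BZLF the change was -1.24 ± 0.21 against control (2.36-fold lower, adjusted p = 0.00138) and -0.71 ± 0.23 against IMQ + NS (adjusted p = 0.105). The death domain receptor Tnfrsf21 fell after BZLF (-0.45 ± 0.10, adjusted p = 0.0282, lost in 4 of 8 such fits) from a level of 7.28 to 8.48 FPKM to one of 5.0 to 6.43 FPKM.

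Of the 6 costimulatory receptors of lymphocytes, Tnfrsf9 and Tnfrsf8 rose in the lesion. Tnfrsf8, which encodes CD30, was at 0.0286, 0.122, 0.0804 and 0.0590 FPKM in control, 0.356, 0.396, 0.654 and 0.335 FPKM in IMQ + NS and 0.221, 0.119, 0.297 and 0.140 FPKM in IMQ + BZLF skin. The IMQ + NS samples exceeded all others. The change was 1.63 ± 0.25 in the lesion (3.09-fold, adjusted p = 0.000816) and -0.87 ± 0.26 after BZLF, where the adjusted p of 0.0839 missed the threshold. Cd40, the activating receptor of B cells and dendritic cells, was at 1.93, 1.74, 2.5 and 1.97 FPKM in control, 1.02, 1.0, 1.5 and 1.39 FPKM in IMQ + NS and 0.681, 0.615, 1.13 and 1.29 FPKM in IMQ + BZLF skin. It was lower than control in the lesion (-0.70 ± 0.18, adjusted p = 0.00941) and after BZLF (-1.10 ± 0.24, adjusted p = 0.00512, short of the fold limit without IMQ + BZLF replicate 1 or 2), with the treated groups overlapping (-0.41 ± 0.24, adjusted p = 0.361). Cd27, Tnfrsf4 and Tnfrsf18 passed in no comparison, with changes from -0.73 to 0.37. Tnfrsf4 overlaps Sdf4, with which reads may be shared. The 3 tested ligands of this set, Tnfsf8, Tnfsf9 and Tnfsf18, reached at most 1.08 FPKM, and of these Tnfsf8 alone passed once, lower after BZLF than in control (-0.67 ± 0.25, adjusted p = 0.0473, lost in 7 of 8 fits that left out 1 library).

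The B cell survival receptors parted in the lesion. Tnfrsf13c, the BAFF receptor, was at 0.295, 0.320, 0.157 and 0.119 FPKM in control, 1.11, 1.31, 0.713 and 1.48 FPKM in IMQ + NS and 2.44, 1.65, 1.23 and 1.05 FPKM in IMQ + BZLF skin. It rose in the lesion (1.97 ± 0.29, 3.92-fold, adjusted p = 0.000584), and after BZLF it was 5.20-fold above control (2.38 ± 0.31, adjusted p = 0.000455) with the treated groups overlapping (0.41 ± 0.28, adjusted p = 0.427). Tnfrsf17, which encodes the plasma cell receptor BCMA, went down in the lesion. It was at 1.48, 0.868, 2.23 and 2.17 FPKM in control, 0.147, 0.425, 0.239 and 0.184 FPKM in IMQ + NS and 0.247, 1.10, 0.823 and 0.559 FPKM in IMQ + BZLF skin. The fall was 5.04-fold (-2.33 ± 0.34, adjusted p = 0.00054). After BZLF the value was 1.09 ± 0.39 against IMQ + NS (adjusted p = 0.14) and -1.25 ± 0.42 against control (adjusted p = 0.0331), the latter lost in 5 of 8 fits that left out 1 library. Tnfrsf13b, which encodes TACI, fell after BZLF (-0.77 ± 0.14, adjusted p = 0.0147), from 2.66 to 3.02 FPKM to 1.23 to 1.90 FPKM. It overlaps Usp22, with which reads may be shared.

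**Figure D5:**
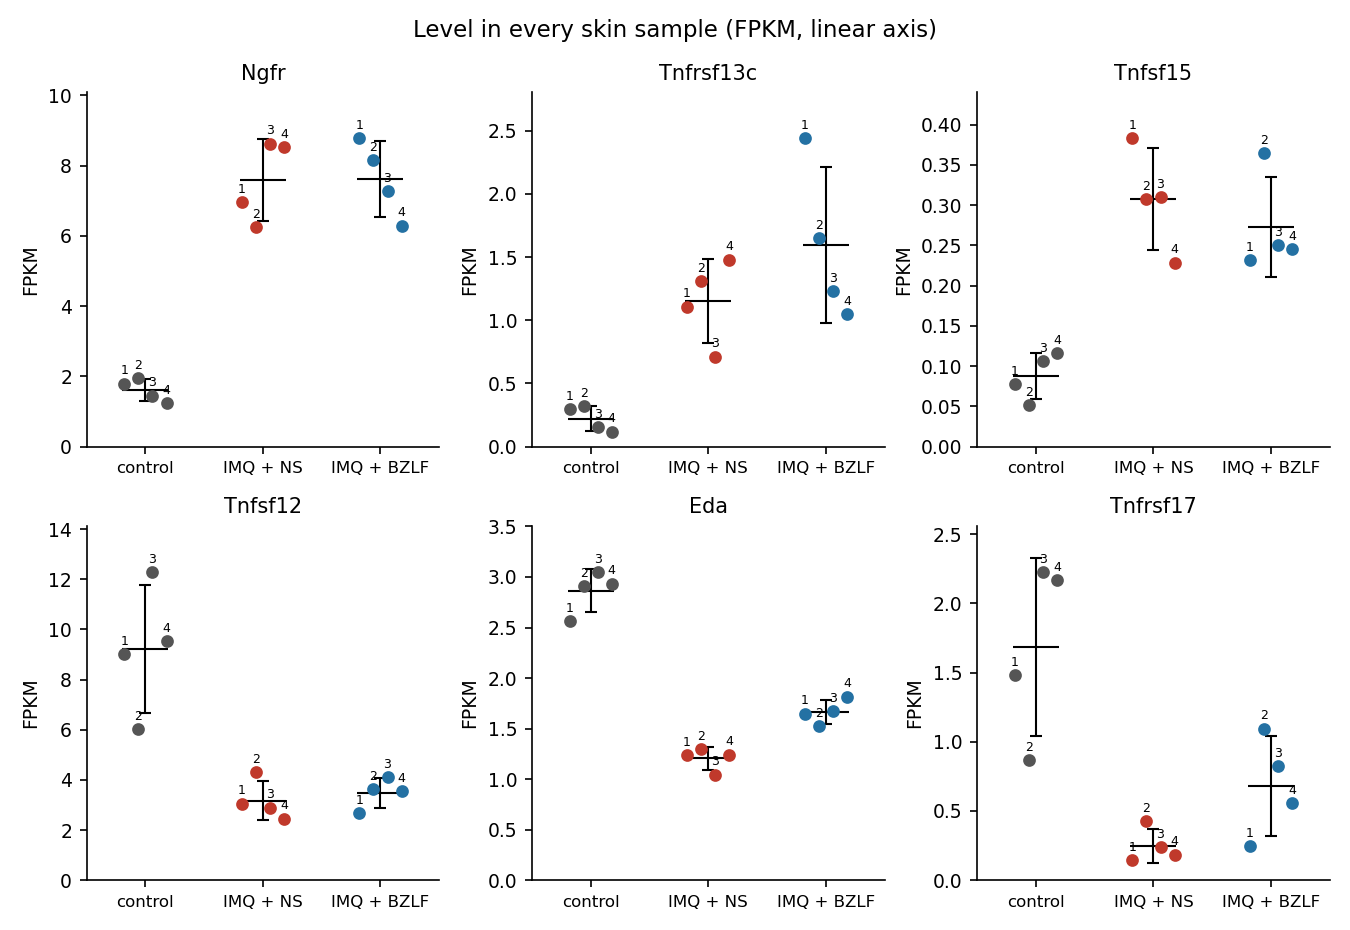
Level of Ngfr, Tnfrsf13c, Tnfsf15, Tnfsf12, Eda and Tnfrsf17 in every sample, in FPKM on linear axes from 0, with replicate numbers and black marks for the mean and SD of 4 samples. In the top row the control samples lie below all treated samples, and in the lower row the IMQ + NS samples lie below all controls. Eda is the 1 gene of the 6 whose IMQ + BZLF samples, 1.53 to 1.82 FPKM, stand apart from both other groups.

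The summed B cell and plasma cell markers given above were higher in every IMQ + NS than in every control sample, and single genes among them were low. Ms4a1 and Cd79a stood at or below 0.682 FPKM in every sample, Cd79b ranged from 0.712 to 2.03, 3.12 to 5.14 and 1.09 to 1.91 FPKM in the 3 groups, and the antibody joining chain Jchain from 0.429 to 0.714, 2.20 to 4.97 and 0.506 to 10.7 FPKM, where IMQ + BZLF replicate 4 gave the highest value. Their part in the levels of Tnfrsf13c and Tnfrsf17 was not tested. Of the ligands, Tnfsf13b, which encodes BAFF, was at 0.809, 0.630, 1.17 and 1.18 FPKM in control, 1.09, 0.708, 0.816 and 0.782 FPKM in IMQ + NS and 0.465, 0.470, 0.410 and 0.302 FPKM in IMQ + BZLF skin. It did not pass in the lesion (-0.12 ± 0.22, adjusted p = 0.675), fell after BZLF (-0.89 ± 0.18, adjusted p = 0.0214, lost in 3 of 8 fits that left out 1 library) and was then 2.01-fold below control (adjusted p = 0.0062), at the edge of the fold limit and short of it in 3 of 8 fits that left out 1 library. Tnfsf13 ranged from 0.149 to 1.13 FPKM in control skin and passed nowhere.

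RANK, Tnfrsf11a, the receptor for the osteoclast and lymph node ligand RANKL, and its decoy osteoprotegerin, Tnfrsf11b, moved apart. Tnfrsf11a, in control replicate 2 the lowest of the controls, was at 2.06, 1.78, 2.10 and 2.05 FPKM in control, 1.42, 1.66, 1.59 and 1.19 FPKM in IMQ + NS and 0.536, 1.28, 1.18 and 0.918 FPKM in IMQ + BZLF skin. It was lower than control in the lesion (-0.43 ± 0.14, adjusted p = 0.0247, lost in 5 of 8 fits that left out 1 library) and after BZLF (-1.02 ± 0.24, adjusted p = 0.00714), where it fell short of the fold limit without control replicate 3 or IMQ + BZLF replicate 1. Tnfrsf11b rose in the lesion (0.87 ± 0.18, adjusted p = 0.00313) and was as much above control after BZLF (0.94 ± 0.19, adjusted p = 0.00397). Tnfsf11, which encodes RANKL, was at most 0.325 FPKM, in control replicate 2, and passed in no comparison. It was at 0.0343 to 0.0784 FPKM in the other controls and at 0.175 to 0.278 FPKM in IMQ + NS skin. The mouse decoy receptors Tnfrsf22, Tnfrsf23 and Tnfrsf26, neighbours on chromosome 7, had negative changes in all 3 comparisons. Of these Tnfrsf26 passed the adjusted p in the lesion (-0.50 ± 0.19, adjusted p = 0.0496, lost in 5 of 8 such fits), and Tnfrsf22 and Tnfrsf26 passed it after BZLF against control (-0.75 and -0.85).

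Downstream of the receptors, 5 lists of 46 genes were counted in the same fits, and all 46 were tested. After BZLF against IMQ + NS none of the 46 was called by limma. At an unadjusted p below 0.05, 18 were lower (39.1%) and 0 higher, against 14.8% and 7.96% of all tested genes. At the adjusted p alone 3 were lower (6.52%), a share near the 5.17% of all genes: Birc3, a ubiquitin ligase of the TNF receptor complex (-0.61, adjusted p = 0.0486), Nfkbia, the NF-kappa B inhibitor that NF-kappa B itself induces (-0.54, adjusted p = 0.0167), and Nfkb2, the precursor of the non-canonical subunit (-0.52, adjusted p = 0.0323). In the lesion Edaradd alone was called. At the adjusted p alone, which 29% of all genes passed as higher and 27.1% as lower, 8 of 18 adaptors and ubiquitin enzymes rose and 3 fell, among them Traf1 (0.76, adjusted p = 0.00104), Tab3 (0.87, adjusted p = 0.000598) and Traf5 (-0.79, adjusted p = 0.000318). Of 9 brakes on TNF receptor signals 1 rose and 3 fell, and of 10 genes of the death machinery 1 rose and 1 fell, the former being Ripk3 (0.89, adjusted p = 0.0299).

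Against control, IMQ + BZLF skin was lower at the adjusted p, as were 29.2% of all tested genes, for 6 of the 9 brakes, with a median log2 fold change of -0.67 over the list beside -0.02 over all genes. They were Tnip3 (called, -1.04, adjusted p = 0.022, a call lost without control replicate 1 or 3 or IMQ + BZLF replicate 1), Nfkbia (-0.81), Nfkbie (-0.78), Tnip2 (-0.70), the deubiquitinase Cyld (-0.67) and Tnip1 (-0.21). Of the 4 non-canonical NF-kappa B genes, Map3k14 (-0.83, adjusted p = 0.0131), Relb (-0.72, adjusted p = 0.00228) and Nfkb2 (-0.47, adjusted p = 0.0043) were lower. The lists did not all go down: of the 18 adaptors and ubiquitin enzymes 7 were higher and 5 lower, with a median of 0.04. Of the 10 death machinery genes 0 were higher and 3 lower. Over all tested genes 23.8% were higher at the adjusted p. Of 5 genes linked to the shedding of ligands and receptors, none passed between the treated groups. Rhbdf2, which the TNF-releasing protease needs, was higher in both treated groups than in control (0.90 and 0.79, adjusted p = 0.00162 and 0.00457). So was Adam10 (0.54 and 0.43, adjusted p = 0.00903 and 0.0308). Timp3 was lower in both (-0.27 and -0.21, adjusted p = 0.00436 and 0.0415), and Rhbdf1 in IMQ + NS skin alone (-0.25, adjusted p = 0.0435).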

How the data were processed

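RNA-seq of back skin was analysed in 12 samples, 4 per group. The authors deposited FPKM values, 1 per gene and sample, normalized for transcript length and sequencing depth and not log-transformed. All 12 columns matched a sample. The sources differ on the upstream steps. The paper's methods name a stranded total RNA kit, Bowtie2, eXpress and DESeq2 on counts, while the submitters' processing notes name fastp, HISAT2, HTSeq, R 3.2.0 and build mm10 and the labels another library kit. FPKM keep no read counts, so no count model or counting interval was used. The study states a similar amount of sequence for every sample, and reads per gene are unknown. The sums were 444660 to 506622 FPKM per sample, and 16649 to 16941 genes were above 0. The BZLF dose of the sequenced samples is not given in the sources used here.

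Genes with a mean of at least 0.1 FPKM over the 12 samples, 15288 of 18505, were tested on log2(FPKM + 0.1) with limma 3.58.1 in R 4.3.3, as a linear model whose variances were moderated with a trend on mean level. Each pair of groups (4 against 4) had its own fit. Benjamini-Hochberg adjustment ran over all genes tested, and a gene was called at an adjusted p below 0.05 and a fold change over 2. A second test of single members was the exact permutation test (two-sided, 70 assignments of the samples). The fit was tested on simulated data with planted log2 changes of 2 and 3. Of those of 2, it recovered 98 of 105, 105 of 109 and 95 of 107 in the 3 comparisons. Changes near the fold limit were not simulated, so calls there were not checked by it. The members, the gene lists and the tests were chosen with earlier results of these data known. Members were described with the value of every sample when called in any comparison, as were Tnf, Lta, Ltb, Tnfrsf1a, Tnfrsf1b, Ltbr, Fas, Fasl, Cd40 and Cd40lg. Of 5 pathway lists, called genes of IMQ + BZLF against IMQ + NS were to be named. As 0 were called, genes past the adjusted p and others were named after their values were seen. A further 18 marker lists were summed per sample, with 1 marker left out that is not reported here. Promoters were taken from RefSeq, GRCm38.p6, for the 35 members with an entry. Alternatives changed the added constant (0.01 or 1), the filter, the scaling, the model, the replicate block and the thresholds, or left out 1 replicate. Counts and plots were made with pandas 2.3.3 and matplotlib 3.10.9 (Python 3.11.15).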

Additional observations from a re-analysis of the deposited data

Results flagged for a closer look

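In groups of 4, a sample was singled out when its gap to the nearest other sample, divided by the range of the group, exceeded Dixon's critical value for 4 samples. Chance alone gives about 1 in 20 such groups. Of 123 groups of tested members 8 were singled out, and 5 of the 8 lay in control replicate 2, the library with the raised hair markers. In that sample Tnfrsf12a was at 57.1 FPKM (24.9 to 29.8 FPKM in the other controls), Tnfrsf19 at 13.9 FPKM (6.13 to 6.99 FPKM), Edar at 1.08 FPKM (0.340 to 0.435 FPKM) and Tnfsf11 at 0.325 FPKM (0.0343 to 0.0784 FPKM), each the highest of its group. Tnfrsf11a was the lowest there, at 1.785 FPKM against 2.05 to 2.10 FPKM.

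The other 3 lay in the IMQ + BZLF group. Tnfrsf9 was at 0.520 FPKM in replicate 4 against 0.165 to 0.216 FPKM in the others, Tnfsf15 at 0.365 FPKM in replicate 2 against 0.232 to 0.25 FPKM, and Tnfsf8, the lowest, at 0.0401 FPKM in replicate 1 against 0.112 to 0.120 FPKM.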

How the results depend on the processing

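The counts of called members moved as follows. Higher and lower members were 6 and 4 (IMQ + NS against control), 0 and 3 (IMQ + BZLF against IMQ + NS), and 2 and 8 (IMQ + BZLF against control). With 1 added before the logarithm the first became 2 and 2, the lower count of the second 1 and of the third 2. With a mean of at least 1 FPKM, which tested fewer members, the first became 2 and 2 and the third 1 and 5. With 0.01 added, 4 members were higher in the third. With no fold limit the counts were 10 and 8, 1 and 8, and 6 and 16. With an unadjusted p, 1 member was higher in the second. Leaving out 1 library gave 6 to 7 and 3 to 4 in the first, 0 to 1 and 1 to 4 in the second, and 2 to 4 and 5 to 9 in the third. The other 96 values of these counts stayed within 1.5 times.

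Directions turned only in changes that were not called. Lta changed by -0.0463 to 0.7309 in the first comparison and by -0.6288 to 0.0117 in the third when 1 library was left out, Ltb by -0.4121 to 0.0970 in the third, and Tnfrsf1a by -0.0084 in the first with samples rescaled to equal sums. That rescaling moved the median over all genes from 0.05 to -0.07 in the first comparison and from -0.02 to -0.12 in the third. Quantile normalization moved the former to -0.07.

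The samples carry numbers from 1 to 4 in every group, and nothing in the labels says that a number pairs them. Same-numbered samples had correlations of their deviations from the group means of -0.152 to 0.260, and not every sample correlated best with its own number. With the replicate block, 1 member, Tnfrsf17, was called higher and 4 lower between IMQ + BZLF and IMQ + NS samples, where Tnfsf14 was added, and the counts were 6 and 4 and 2 and 7 in the other comparisons, Tnfrsf17 missing the third (adjusted p = 0.0502). FPKM do not give the reads behind each gene, so the precision of members below 1 FPKM rests on the 4 replicates alone.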
